A study of Homo sapiens with 2 samples.

Results

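Genes of the peroxisome were compared between PC3 cells given fluphenazine and PC3 cells given DMSO. The set was a fixed list of 28 genes for peroxisome assembly, for the oxidation of branched-chain fatty acids and bile acid intermediates, for ether lipid synthesis and for transport. All probe sets whose single annotated gene was on the list were taken. They covered 26 of the 28 genes, of 18392 genes on the arrays, with 53 probe sets. The signals of PEX13 and SCP2 were not analysed here, and both genes enter only the counts of upstream sequence windows below.

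PC3 cells are a human line grown from a prostate adenocarcinoma that had spread to bone. Fluphenazine, an antipsychotic drug of the phenothiazine class and a dopamine receptor blocker, was given at 10 µM to one culture, and the solvent DMSO alone to the other. Each treatment was read by 1 Affymetrix array of total RNA, and both cultures were grown in RPMI-1640 medium with fetal bovine serum. The labels name no genetic change in the cells. How long the cells were treated is not stated in the labels. With 1 array per treatment there was no spread between cultures and no test, so every difference below is between these 2 arrays.

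Peroxisomes are organelles that shorten fatty acids which mitochondria handle poorly, among them very long and branched chains, and that trim the side chain of bile acid precursors. Their enzymes are made in the cytosol and imported folded, guided by targeting signals, by a set of proteins called peroxins. The organelle also hosts the first steps in making ether lipids such as plasmalogens. In rodent liver many of its genes are switched on by PPAR alpha, a fatty acid receptor.

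The values are log2 signals as the authors deposited them. Each gene was represented by its probe set with the highest mean of both arrays, and a difference is the fluphenazine value minus the DMSO value. A gene counted as above the expression floor when it reached 6.19 on at least 1 array, a limit set so that 9196 of the 18392 genes pass. The floor is a rank and not a detection call. A gene was counted as different where its log2 difference was at least 0.32 in size, called the threshold below. Probe sets that read the same gene gave a measure of noise within the arrays, since their differences scattered with a pooled SD of 0.13 (3668 genes). That SD contains no variation between cultures.

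The labelled origin, an epithelial prostate cancer, was checked against cell type markers. Of 7 epithelial markers 6 lay above the floor, the basal keratin gene KRT5 being the exception. From the fibroblast list 5 of 6 measured markers lay under the floor, all but COL1A1. From the blood and endothelial list 5 of 6 lay under it, all but PECAM1. All 4 measured hepatocyte markers lay under it. Of 4 measured genes that mark androgen-driven luminal prostate cells, KLK3 and TMPRSS2 lay above the floor while KLK2 and FOLH1 lay under it.

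Most peroxisomal genes differed little between the treatments, and 1 gene stood out. ACOX2, an oxidase of bile acid intermediates and branched-chain fatty acids, was 1.61-fold lower in fluphenazine-treated cells. In RNA of a whole culture, a loss in some of the cells and a smaller loss in every cell cannot be told apart. It was the only member above the floor past the threshold. Of the 26 measured members, 23 lay above the floor and 3, PEX6, ACOX3 and AMACR, lay under it. Among the 23, 1 was lower and 0 were higher by the threshold, while of all 9196 genes above the floor 2.58% were lower and 2.69% higher by it. The share of members past the threshold is therefore near that of all genes. The same holds for the size of the differences in general, with a median size of 0.10 for the members and 0.10 for all genes. By sign alone 16 members, or 69.6%, were lower and 7 higher, against 51.8% lower and 48.2% higher over all genes. The members' median difference was -0.04 and that of all genes -0.01. The excess of lower members depended on the probe sets taken. With all probe sets of a gene averaged, those under the floor included, 13 of 24 members were lower, or 54.2%, against 55.3% of all genes. With only probe sets above the floor averaged 16 of 23 were lower, or 69.6%, against 53.8%. Without probe sets ending in _x_at or _s_at 62.5% were lower, against 49.5%.

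**Figure D1:**
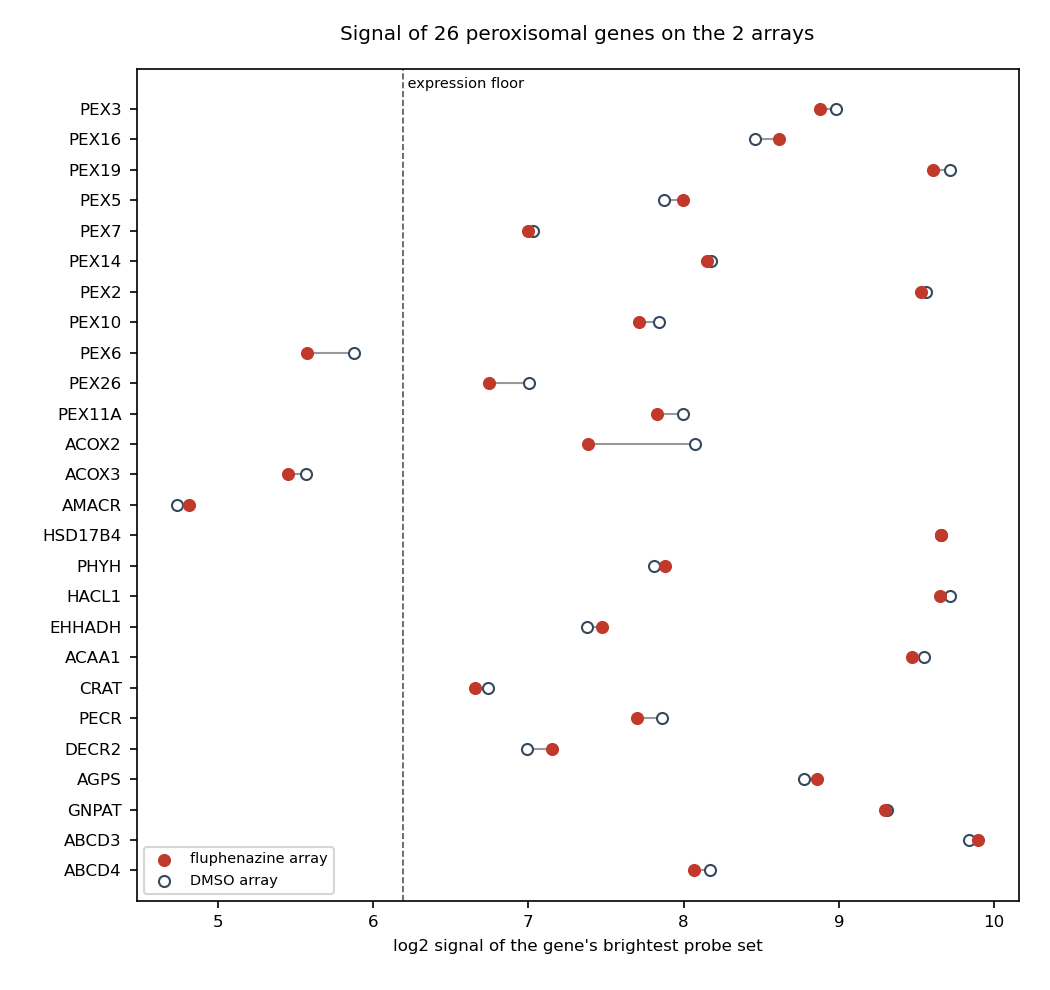
Log2 signal of 26 peroxisomal genes, with the fluphenazine array as filled red points and the DMSO array as open points, joined by a line for each gene. The dashed line is the expression floor of 6.19, and positions of different genes are not comparable because they come from different probes. The points of most genes nearly coincide, and the widest gap is that of ACOX2, at 7.39 with fluphenazine and 8.07 with DMSO.

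**Figure D2:**
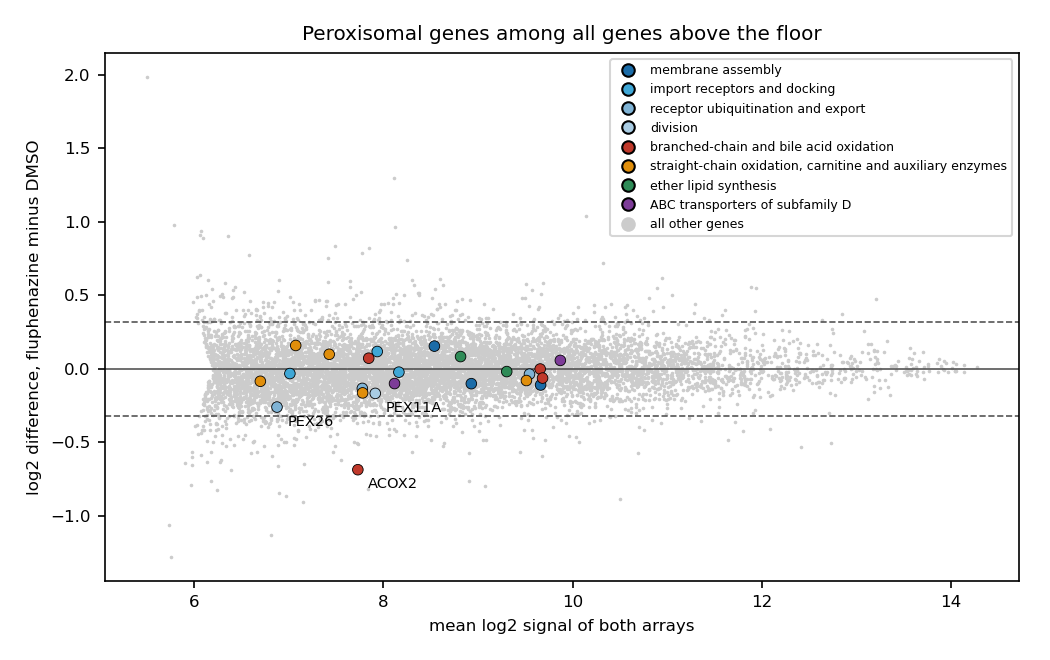
Log2 difference, fluphenazine minus DMSO, against the mean log2 signal of both arrays for the 9196 genes above the floor (grey) and the 23 members among them (coloured by role). Dashed lines mark the threshold of 0.32 either way, and among the members only ACOX2 lies outside them.

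The peroxins that place proteins in the peroxisomal membrane differed by little and in both directions. PEX3, the membrane anchor for incoming membrane proteins, had a log2 signal of 8.88 with fluphenazine and 8.98 with DMSO. PEX19, the carrier that brings them to PEX3, had 9.61 with fluphenazine and 9.72 with DMSO, and its second probe set gave a difference of -0.08. PEX16, which helps recruit PEX3, had 8.62 with fluphenazine and 8.46 with DMSO. Its brightest probe set was therefore higher with the drug, by 0.16, while a second one above the floor differed by -0.05. For PEX3 a second bright probe set differed by less than 0.01, and a dimmer one, under the floor, by 0.31.

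Import receptors and docking proteins were close on both arrays. PEX5, the receptor for cargo with a signal at its C-terminal end, had 7.99 with fluphenazine and 7.88 with DMSO. PEX7, the receptor for cargo with a signal near its N-terminal end, had 6.996 with fluphenazine and 7.028 with DMSO. Its 2 probe sets above the floor were both lower, by 0.03 and 0.25. PEX14, a docking protein in the membrane, had 8.15 with fluphenazine and 8.17 with DMSO. These 3 genes all differed by less than the SD of probe sets within genes, 0.13, when read by their brightest probe set.

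The peroxins that ubiquitinate and extract the import receptors, so that they can be used again, were lower in the 3 members above the floor. PEX26, which tethers the extraction motor to the membrane, had 6.75 with fluphenazine and 7.01 with DMSO, a difference of -0.26. By the brightest probe set of each gene this was the largest peroxin difference above the floor, and it did not reach the threshold. The 2 other probe sets of PEX26, both under the floor, gave -0.04 and 0.21. PEX10, a ubiquitin ligase, had 7.71 with fluphenazine and 7.84 with DMSO, and its second probe set, under the floor, was higher by 0.19. PEX2, its partner ligase, had 9.53 with fluphenazine and 9.56 with DMSO. PEX6, a subunit of the motor itself, lay under the floor, and its 2 probe sets gave -0.30 and 0.00. With all probe sets of a gene averaged, PEX2, PEX10 and PEX6 were the genes of the group above the floor, and the group's median was 0.01 in place of -0.13. The common direction was therefore not kept under that choice.

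PEX11A, which helps peroxisomes elongate and divide and whose mouse counterpart responds to PPAR alpha, was lower on both of its probe sets. The brighter one read 7.831 with fluphenazine and 7.998 with DMSO, and the other 6.70 with fluphenazine and 6.98 with DMSO. The differences, -0.17 and -0.28, point the same way and neither reached the threshold. Of all genes above the floor, 26.1% had a difference larger in size than the brighter probe set of PEX11A.

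The branched-chain and bile acid pathway holds the only member above the floor past the threshold, ACOX2. ACOX2 catalyses the first oxidation step on bile acid intermediates. Its single probe set had a log2 signal of 7.39 with fluphenazine and 8.07 with DMSO, a difference of -0.69. Only 14 of the 9196 genes above the floor had a lower value, since ACOX2 ranked 15 from the lowest, and at 1.5-fold 0.294% of genes were lower. Because ACOX2 has 1 probe set, no second reading of the gene was at hand on these arrays. The 3 other scalings of the arrays put the difference between -0.68 and -0.67, and other choices of probe set could not alter it.

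The enzymes around ACOX2 did not share its difference in size. HSD17B4, the multifunctional enzyme that acts after ACOX2, had 9.66 on both arrays, a difference of -0.000785. AMACR, a racemase that prepares branched substrates and is widely used as a prostate cancer marker, lay under the floor, at 4.81 with fluphenazine and 4.73 with DMSO. Its 3 probe sets ranged from -0.14 to 0.08. ACOX3, another branched-chain oxidase, lay under the floor as well, and its 2 probe sets disagreed, with -0.12 and 0.48. Since AMACR and ACOX3 were that dim, these arrays carry little on their direction.

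Alpha-oxidation, which removes a single carbon from phytanic acid, was read by 2 genes with 1 probe set each. PHYH, the hydroxylase that starts it, had 7.88 with fluphenazine and 7.81 with DMSO. HACL1, the lyase that follows, had 9.65 with fluphenazine and 9.71 with DMSO. The pair lay on either side of 0 and within the SD of probe sets. Without ACOX2 the differences of the pathway members above the floor therefore spanned only -0.06 to 0.07.

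The enzymes for straight-chain acids and the auxiliary enzymes went both ways. EHHADH, the other bifunctional enzyme of the organelle and a PPAR alpha target in rodent liver, had 7.48 with fluphenazine and 7.38 with DMSO. ACAA1, the thiolase that ends each round, had 9.47 with fluphenazine and 9.55 with DMSO. CRAT, which moves acetyl groups onto carnitine, had 6.66 with fluphenazine and 6.74 with DMSO. Above the floor the differences of these 3 genes were at most 0.10 in size, while a second CRAT probe set, under it, gave -0.24. DECR2, a reductase for unsaturated chains, had 7.15 with fluphenazine and 6.99 with DMSO, and at 0.16 it was the highest member above the floor. PECR, another reductase of unsaturated intermediates, had 7.70 with fluphenazine and 7.86 with DMSO, while its second probe set read 6.64 with fluphenazine and 6.52 with DMSO. The 2 probe sets of PECR thus disagreed in direction, by the widest span of any member with several probe sets above the floor, 0.28.

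The genes of ether lipid synthesis were nearly level. AGPS, which forms the ether bond, was read by 4 probe sets above the floor, more than any other member. Their differences were 0.08, 0.04, 0.02 and 0.03, and the brightest read 8.86 with fluphenazine and 8.77 with DMSO. GNPAT, the acyltransferase that comes before AGPS, had 9.29 with fluphenazine and 9.31 with DMSO. No probe set of the pair differed by as much as the SD of probe sets within genes.

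Of the transporters, ABCD3, which carries branched-chain and bile acid intermediates into the peroxisome, had 9.90 with fluphenazine and 9.84 with DMSO, with a second probe set higher by 0.10. ABCD4, a relative that serves vitamin B12 export from lysosomes, had 8.07 with fluphenazine and 8.17 with DMSO. Above the floor the pair differed in direction and by no more than 0.10 in size, while a second ABCD4 probe set, under it, gave -0.31.

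Probe sets gave a check within each array. Of 11 members with several probe sets above the floor, 7 were lower on all of them, 2 were higher on all of them and 2, PEX16 and PECR, were split. The same counts over all genes are not given here, so these have no share to be set against. The other 12 members above the floor, ACOX2 among them, had 1 such probe set. Under the floor the spread was wider, with values as far apart as -0.46 for PEX14 and 0.48 for ACOX3.

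**Figure D3:**
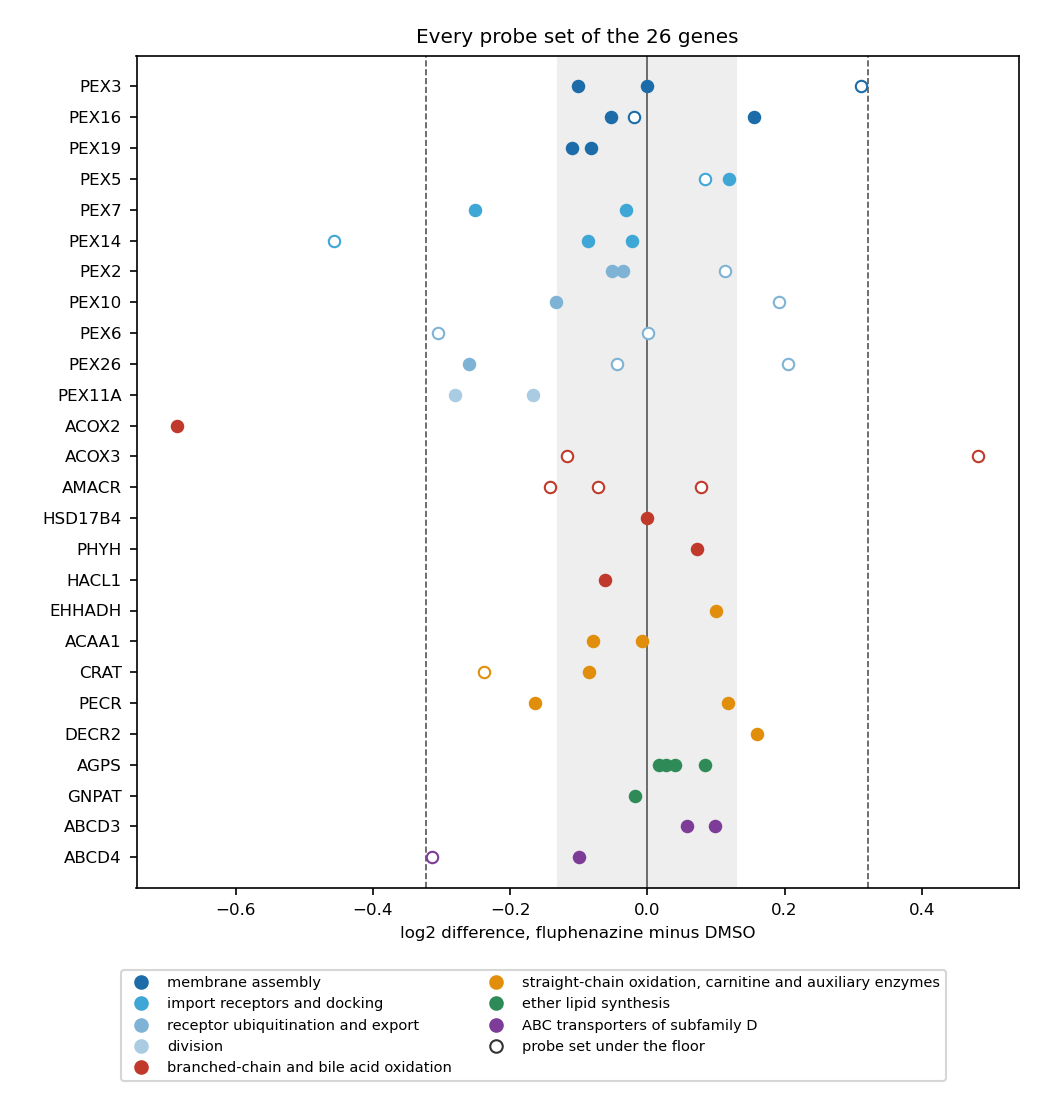
Log2 difference, fluphenazine minus DMSO, for each of the 53 probe sets of the 26 genes, coloured by role, with filled points above the floor and open points under it. The grey band is the pooled SD of probe sets within genes, 0.13 either side of 0, and dashed lines mark the threshold of 0.32. Above the floor only the probe set of ACOX2 lies outside the dashed lines, while under it PEX14 and ACOX3 have 1 each outside.

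Sequences upstream of the start site were examined for the peroxins with the largest differences above the floor and, for contrast, for AGPS, which was level on 4 probe sets. The 250 bases before the annotated start are shown from RefSeq, build GRCh38.p14, 5′ to 3′ on the gene's strand. Capitals mark matches, on either strand, to the nuclear receptor half-site AGGTCA, the E-box CACGTG or the GC box GGGCGG. A direct repeat of the half-site with 1 base of any kind between the copies is the kind of element PPAR alpha binds, and each repeat would also hold half-sites.
PEX26, chr22:18077740-18077989, plus strand: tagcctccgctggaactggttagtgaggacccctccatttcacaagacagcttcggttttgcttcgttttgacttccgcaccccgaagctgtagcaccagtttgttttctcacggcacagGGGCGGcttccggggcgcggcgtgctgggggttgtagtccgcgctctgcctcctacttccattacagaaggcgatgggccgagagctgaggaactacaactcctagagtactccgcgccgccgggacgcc
PEX11A, chr15:89690755-89691004, minus strand: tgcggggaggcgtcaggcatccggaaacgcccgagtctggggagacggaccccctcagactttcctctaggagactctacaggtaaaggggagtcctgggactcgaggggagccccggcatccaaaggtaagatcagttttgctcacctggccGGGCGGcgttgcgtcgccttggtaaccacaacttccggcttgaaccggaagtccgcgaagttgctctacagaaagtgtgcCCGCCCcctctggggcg
AGPS, chr2:177392523-177392772, plus strand: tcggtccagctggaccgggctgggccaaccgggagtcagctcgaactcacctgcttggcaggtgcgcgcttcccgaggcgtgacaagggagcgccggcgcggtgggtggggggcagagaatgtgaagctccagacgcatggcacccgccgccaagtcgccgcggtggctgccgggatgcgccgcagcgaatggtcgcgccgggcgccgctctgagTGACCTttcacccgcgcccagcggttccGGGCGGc

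The table matched 21 of the 28 members with 28 windows, since some genes have several starts. The members without a window were ACOX2, PEX2, PEX14, EHHADH, ACAA1, CRAT and DECR2, so the counts below do not cover them. The direct repeat, searched only as an exact string, was in 0 of the 28 windows and in 6, or 0.0171%, of all 35116 windows. A string that rare could hardly be met in 28 windows, so the 0 says nothing of the members. The half-site was in 1 window, that of AGPS, or 3.57%, against 12.1% of all windows and 8.67% of those of genes above the floor. GC boxes were in 20 windows, or 71.4%, against 42.6% of all windows and 64.6% of the 11275 windows of genes above the floor. E-boxes were in 3 windows, those of GNPAT, PECR and PEX10, or 10.7%, against 6.34% of all windows and 8.38% of those of genes above the floor. PEX11A had 2 GC boxes and PEX26 had 1, as had AGPS. The matches describe the letters of these windows and not sites in use.

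Further genes of the organelle were taken from lists that shared no gene with the 28. Over 5 such lists, 34 of 46 measured genes lay above the floor, of which 13 were higher and 21 lower, with a median difference of -0.03. The lower ones made up 61.8%, against 51.8% of all genes above the floor. By the threshold 1 was lower and 0 were higher, while of all genes above the floor 2.58% were lower and 2.69% higher by it. The lower one was EPHX2, an epoxide hydrolase found in both peroxisomes and cytosol, which had 6.24 with fluphenazine and 6.69 with DMSO on its only probe set. Its difference was -0.46, or 1.37-fold lower, and its signal was just above the floor. Of the matrix enzyme list as a whole, EPHX2 included, 7 of 9 were lower, against 51.8% of all genes, and the median was -0.12. These counts, like those of the lists below, rest on the brightest probe set of each gene. Averaging all probe sets, which left no excess of lower members, was not tried on them. Catalase, CAT, which breaks down hydrogen peroxide and is on the same list, had 11.21 with fluphenazine and 11.34 with DMSO, and the NADPH-making IDH1 had 11.14 with fluphenazine and 11.28 with DMSO. ISOC1 was the highest of that list at 0.14.

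The remaining lists of the organelle went both ways, while of all genes above the floor 48.2% were higher and 51.8% lower. Of other peroxins and membrane proteins 3 of 5 were higher, from SLC25A17, a carrier for cofactors, at 0.19, to PXMP2, a membrane channel, at -0.12. Fission and turnover genes were split evenly, with 4 of 8 higher, from TRIM37 at 0.17 to the protease TYSND1 at -0.19. Of other fatty acid and bile acid genes 6 of 9 were lower, from ECH1 at -0.19 to the acyl-CoA synthetase ACSL1 at 0.15. FAR1, the reductase that supplies fatty alcohols for ether lipids, was at 0.18, and the other 2 measured ether lipid genes above the floor, SELENOI and CHPT1, differed by less than 0.01 in size.

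Outside the peroxisome, PPARA, the gene for PPAR alpha, had 7.13 with fluphenazine and 6.80 with DMSO. The difference was 0.33, just past the threshold, and its second probe set above the floor gave 0.34. The 7 dimmer probe sets of PPARA ranged from -0.35 to 0.27. Of 8 genes above the floor for PPAR alpha, other nuclear receptors and coactivators, 4 were higher and 4 lower. Over all genes above the floor the shares were 48.2% higher and 51.8% lower. NR1H3, a liver X receptor, was the lowest of the 8 at -0.24. PPARA alone of the 8 passed the threshold, by which 2.69% of all genes above the floor were higher. Targets of PPAR alpha outside the peroxisome had a median of 0.04 over 5 genes above the floor, with ANGPTL4 highest at 0.10 and the lipid droplet coat gene PLIN2 lowest at -0.14. None of those 5 targets reached the threshold.

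Of the genes of mitochondrial beta-oxidation, the parallel pathway, 11 of 15 above the floor had a negative difference, against 51.8% of all genes, and the median was -0.03. CPT1A, ACADVL and ACADM are counted both here and among the PPAR alpha targets above, so these lists are not independent. By the brightest probe set of each gene only CPT2 passed the threshold, by which 2.58% of all genes above the floor were lower. CPT2, which releases fatty acids from carnitine inside mitochondria, had 8.21 with fluphenazine and 8.54 with DMSO. That difference was -0.33. Its second probe set was almost as bright, with 8.34 with fluphenazine and 8.41 with DMSO, and gave only -0.07. Whether CPT2 passed the threshold therefore depended on which of these probe sets was taken. SLC25A20, the carnitine carrier, was the highest of the list at 0.12. Of the enzymes that make bile acids outside the peroxisome, 2 lay above the floor. CYP27A1, a side-chain hydroxylase of cholesterol, was at -0.04, and SLC27A5, which couples bile acids to coenzyme A, was at -0.25.

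**Figure D4:**
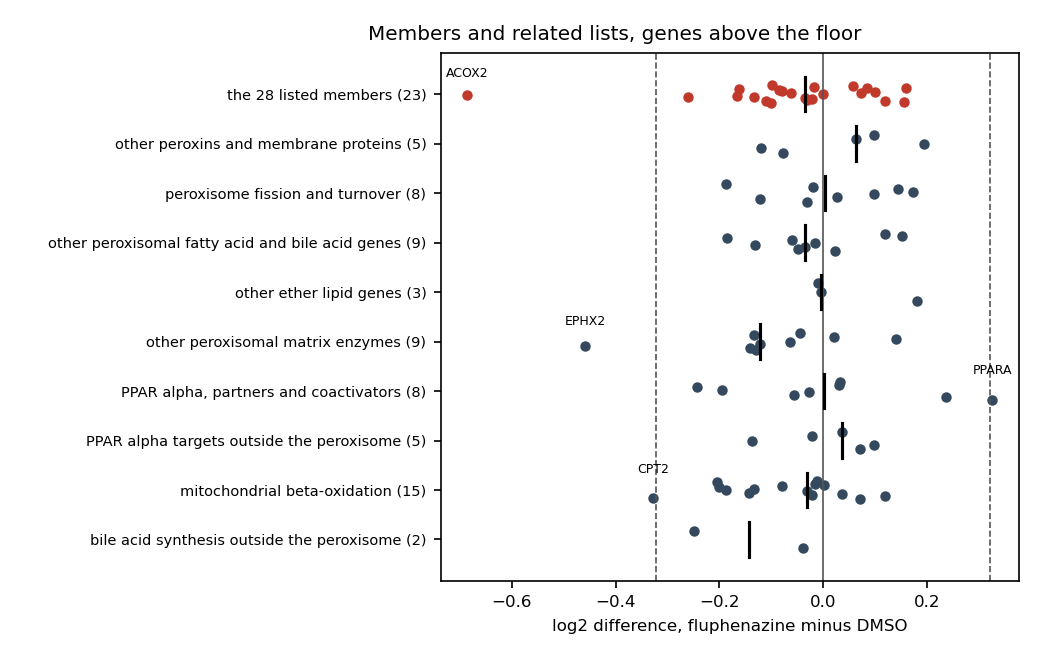
Log2 difference, fluphenazine minus DMSO, for the members and 9 related lists, 1 point for each gene above the floor, with the number of such genes beside each list. CPT1A, ACADVL and ACADM are plotted under both the PPAR alpha targets and mitochondrial beta-oxidation. Black bars are list medians and dashed lines mark the threshold of 0.32, past which lie ACOX2 at -0.69, EPHX2 at -0.46, CPT2 at -0.33 and PPARA at 0.33. A second CPT2 probe set, almost as bright and not shown, gave -0.07.

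On the fluphenazine array all 24 probe sets of the bacterial poly-A spike-ins, which are added before labelling, were lower, by a median of 0.22, a size larger than that of most members' differences and smaller than that of ACOX2. The part of labelling in the members' small differences was not tested.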

How the data were processed

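Total RNA of 1 culture per treatment was hybridised to 1 array each. In the authors' deposited table each probe set has 1 log2 signal for each array. Log2 is judged from the values, which lie between 1.60 and 14.28. RMA, Transcriptome Analysis Console 3.1 and Affymetrix Expression Console 1.4 are named per the submitters' processing notes, which give them no role. The genome build behind the probe annotation is not stated in the labels.

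Of 47693 probe sets, 37151 had 1 annotated gene and gave 18392 genes after control probe sets were left out. Gene symbols were taken from RefSeq by gene identifier for 18353 genes, whether or not they differed from the annotated symbol. Differences, medians and counts were computed with Python 3.11.15, numpy 2.4.6 and pandas 2.3.3, and loess with statsmodels 0.14.6. The procedure was run on simulated data with known shifts, larger than the threshold and the same for all probe sets of a gene. That run checks the computation and not differences as small as those of most members. The number of arrays limits the precision, and no test, p-value or error between replicates could be had. Alternatives were other scalings, probe set choices, floors, folds and leaving out the most extreme member. Every measured member is described. From other lists the extremes and genes past the threshold are named, with further examples chosen after their values were seen, namely CAT, IDH1, SELENOI and CHPT1. The members, lists and thresholds were chosen with earlier results of these data known. The motifs were chosen after the values were seen. A planned search for targeting signals in the proteins was not run, since protein sequences were not used here.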

Additional observations from a re-analysis of the deposited data

How the results depend on the processing

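The members' median difference was negative in all 11 alternatives, between -0.06 and -0.01. Of the 12 alternatives for the count of members past the threshold, 9 gave 1, and it was 0 at 2-fold, 0 with the stricter floor, which ACOX2 does not reach, and 0 without ACOX2. The number of lower members was 10 of 16 without probe sets ending in _x_at or _s_at and 7 of 10 with the stricter floor. Both counts moved because fewer members were read. As shares they were 62.5%, against 49.5% of all genes, and 70%, against 48.6% of all genes. With all probe sets averaged 13 of 24 members were lower, or 54.2%, with a median of -0.01. Over all genes that choice gave 55.3% and a median of -0.02, so no excess of lower members was left under it. With only probe sets above the floor averaged 16 of 23 members were lower, or 69.6%, against 53.8% of all genes. The other scalings turned the sign of 1 member above the floor, HSD17B4, which was at 0.01 with each array centred on its median. The median of the ubiquitination and export peroxins moved to 0.01 with all probe sets averaged, and that of the straight-chain enzymes to 0.10 without probe sets ending in _x_at or _s_at, which left 1 gene. No paired analysis was possible because there is 1 array per treatment. Probe sets under the floor limit what can be read for ACOX3, AMACR and PEX6.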
